A study of Mus musculus with 16 samples.

Results

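The mitochondrial ribosomal protein genes, named Mrpl for the large subunit and Mrps for the small subunit, were described across embryonic stage, ventricular side and hypoplastic left heart syndrome (HLHS) in the mouse embryo. They were chosen by symbol: a row of the count table counted as a member if its mouse symbol was Mrpl or Mrps, a number and at most one letter, and its mean level over the libraries was at least 1 CPM, the read count scaled to library size. This gave 76 genes of 37991 in the table, 47 with a large subunit symbol and 29 with a small subunit symbol. Of the 77 genes in the table with such a symbol, Mrpl53 had 0 reads in every library and was left out. Other genes (Ccdc142os and Gm42688) share 88.0% of its exon bases, so 0 counted reads need not mean no expression. Mrpl33, not among these 77, was not analysed here. The lowest levels among the members were 8.21 CPM for Mrps34 and 13.4 CPM for Mrps18b, far above the minimum. All 76 passed the filter on low counts in every comparison, and the lowest count of any member in any library was 140.

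Mitochondria carry their own ribosome, which builds the few respiratory chain and ATP synthase subunits that the mitochondrial genome still encodes. Its RNAs come from that genome, while all of its proteins are encoded in the nucleus, made in the cytosol and imported. Some of these proteins descend from the ribosome of the bacterial ancestor and others were added in the mitochondrial lineage. The heart depends heavily on respiration, and inherited defects of several of these proteins cause cardiomyopathy in people. Symbols and structure differ for a few members: Mrps30 and Mrps18a are built into the large subunit, and Mrps36 is a part of the 2-oxoglutarate dehydrogenase complex and not of the ribosome. Counted by structure there were 49 large and 26 small subunit genes.

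RNA sequencing covered the left and the right ventricle of 8 embryos, 16 libraries in all, each from one ventricle of one embryo. HLHS is a malformation with a small left ventricle. Per the labels, all embryos were C57BL/6 and were grouped by phenotype as HLHS or as control littermates, with no genotype given. The litters were of embryonic days E13.5 (1 HLHS and 1 control embryo), E14.5 (1 HLHS and 2 controls) and E17.5 (1 HLHS and 2 controls). Control replicate 1 was of E13.5, replicates 2 and 3 of E14.5 and replicates 4 and 5 of E17.5, and HLHS replicates 1, 2 and 3 were of the same stages in order. Each stage was a single litter, so stage and litter cannot be told apart, and the p-values measure the spread between these embryos. Libraries held 17081273 to 28648645 counted reads, and cardiomyocyte marker genes, such as those of the sarcomere, were above 0 in every library. These are bulk samples, in which fewer cells of a type and less RNA per cell cannot be told apart.

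Promoter sequence was matched for 67 of the 76 members, from 250 bases before to 50 bases after the start in RefSeq (GRCm38.p6). These windows were searched on both strands for the cores of 3 factors known to drive nuclear genes for mitochondrial proteins. The NRF1 core (GCGC, any 2 bases, GCGC, which reads the same on both strands) was in 14 member promoters, 20.9%, against 14.8% of the promoters of the same length of 10350 genes at a mean of at least 1 CPM. The ETS core (CCGGAAG), the letters that GABPA binds, was in 24, 35.8% against 19.4%, and the YY1 core (AAGATGG) was in 13, 19.4% against 8.21%. The ETS and YY1 cores can share their AAG. At least one of the 3 was in 42 promoters, 62.7% against 36.4%. Large subunit genes held an NRF1 core in 26.8% of promoters and an ETS core in 31.7%, small subunit genes in 11.5% and 42.3%. A match describes the letters only and does not show a bound site.

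The promoters of 3 genes are shown because the comparisons turn on them: Mrpl45 was lower in HLHS left ventricles, Mrps18b had the largest rise from E14.5 to E17.5, and Mrps18c, of the same family, had a change of 0.00 over that interval. Each runs 5′ to 3′ on the strand of the gene, and capitals mark NRF1 cores in Mrpl45 and the ETS core, read here as its reverse complement CTTCCGG, in the others.
Mrpl45, chr11:97315466-97315765, plus strand: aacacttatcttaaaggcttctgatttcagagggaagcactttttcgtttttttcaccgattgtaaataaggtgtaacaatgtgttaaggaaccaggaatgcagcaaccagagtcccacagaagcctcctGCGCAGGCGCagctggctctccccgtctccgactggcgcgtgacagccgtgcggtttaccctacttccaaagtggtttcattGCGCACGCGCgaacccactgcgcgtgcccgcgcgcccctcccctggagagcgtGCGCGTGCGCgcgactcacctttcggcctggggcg
Mrps18b, chr17:35916391-35916690, minus strand: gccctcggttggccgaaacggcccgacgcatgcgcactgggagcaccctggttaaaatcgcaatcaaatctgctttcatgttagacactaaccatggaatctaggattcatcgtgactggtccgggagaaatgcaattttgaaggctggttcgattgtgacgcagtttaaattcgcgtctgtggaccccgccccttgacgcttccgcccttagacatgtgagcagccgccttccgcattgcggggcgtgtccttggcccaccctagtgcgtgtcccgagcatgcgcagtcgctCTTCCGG
Mrps18c, chr5:100798509-100798808, plus strand: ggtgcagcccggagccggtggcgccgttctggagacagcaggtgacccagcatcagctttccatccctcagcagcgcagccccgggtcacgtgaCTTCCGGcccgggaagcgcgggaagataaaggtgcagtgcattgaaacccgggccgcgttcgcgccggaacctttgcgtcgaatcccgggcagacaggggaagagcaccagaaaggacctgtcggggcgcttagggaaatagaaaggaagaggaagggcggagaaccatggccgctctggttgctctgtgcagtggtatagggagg
The Mrpl45 window held 3 NRF1 cores and neither of the others, and the windows of Mrps18b and Mrps18c held 1 ETS core each.

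The median mean level of the members was 48.8 CPM, 53.5 for the large and 46.2 for the small subunit. Per kilobase of exon, the scale on which genes can be compared, the median was 24.6 CPM per kilobase for the large and 15.5 for the small subunit. The highest were Mrpl34 at 87.2, Mrpl54 at 77.4 and Mrps21 at 76.6 CPM per kilobase, all short genes, and the lowest were Mrps34 at 3.98, Mrps10 at 4.91 and Mrpl17 at 5.22. Members were compact genes, with a median exon length of 2394 bases against 4601 for the 12851 protein-coding genes at a mean of at least 1 CPM. A neighbour in the opposite direction started within 1000 bases of 19 of the 76, 25%, against 10.6% of those genes. Exons of 26 members, 34.2%, overlapped another gene, against 26.3%. More than 50% of exon bases were shared for Mrps34 (77.8%, with Mapk8ip3 and Nme3) and Mrps25 (69.8%, with Nr2c2). Their values are uncertain, since whether the counting used strand is not given in the sources used here.

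Summed over the 76 genes, control left ventricles held 3809 CPM at E13.5, 4245 and 4427 at E14.5, and 4993 and 4611 at E17.5. Control right ventricles held 3960 CPM at E13.5, 3426 and 4073 at E14.5, and 5352 and 4395 at E17.5. The HLHS left ventricles held 3470, 3936 and 4198 CPM at E13.5, E14.5 and E17.5, each below the control left ventricles of its own litter. The HLHS right ventricles held 3779, 3749 and 3833 CPM, below their control littermates at E13.5 and E17.5 and between them at E14.5. Control littermates lay further apart in the right ventricle than in the left at both stages with 2 controls.

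**Figure D1:**
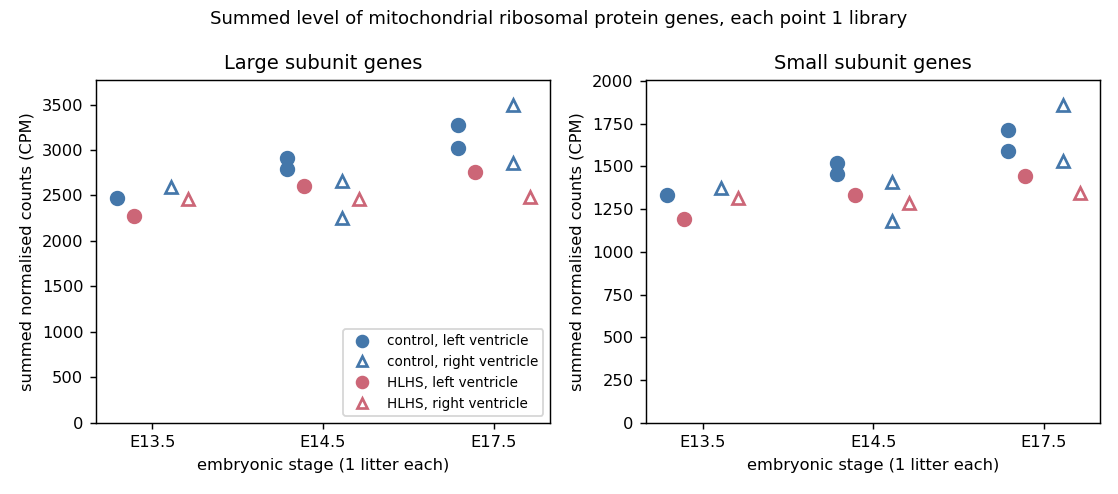
Summed level of the 76 mitochondrial ribosomal protein genes in CPM, for the large and the small subunit symbols, in each of the 16 libraries by ventricle and embryonic day. Each point is one library. In the left ventricle every HLHS point lies below the controls of its stage, and in the right ventricle the E14.5 HLHS point lies between its controls.

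The sums of large and small subunit genes moved together across libraries, with small shifts between them. The ratio of the large to the small subunit sum was 1.894 ± 0.0246 (SD, n = 16 libraries) and ran from 1.85 to 1.945. By group it was 1.898 ± 0.024 (SD, n = 5) in control left ventricles, 1.885 ± 0.014 (SD, n = 5) in control right ventricles, 1.919 ± 0.023 (SD, n = 3) in HLHS left ventricles and 1.877 ± 0.029 (SD, n = 3) in HLHS right ventricles. The sum over all members ran from 3426 to 5352 CPM. Mean log2 level, large minus small subunit, was 0.21 to 0.25 in E13.5 libraries, 0.28 to 0.31 in E14.5 and 0.25 to 0.29 in E17.5 ones. In HLHS embryos the ratio was higher on the left each time (1.908, 1.945 and 1.904 against 1.873, 1.908 and 1.85). It was so in all controls but replicate 1 (1.857 left, 1.886 right). These shifts were not tested. The ratio depends on gene length and describes libraries, not the number of subunits.

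**Figure D2:**
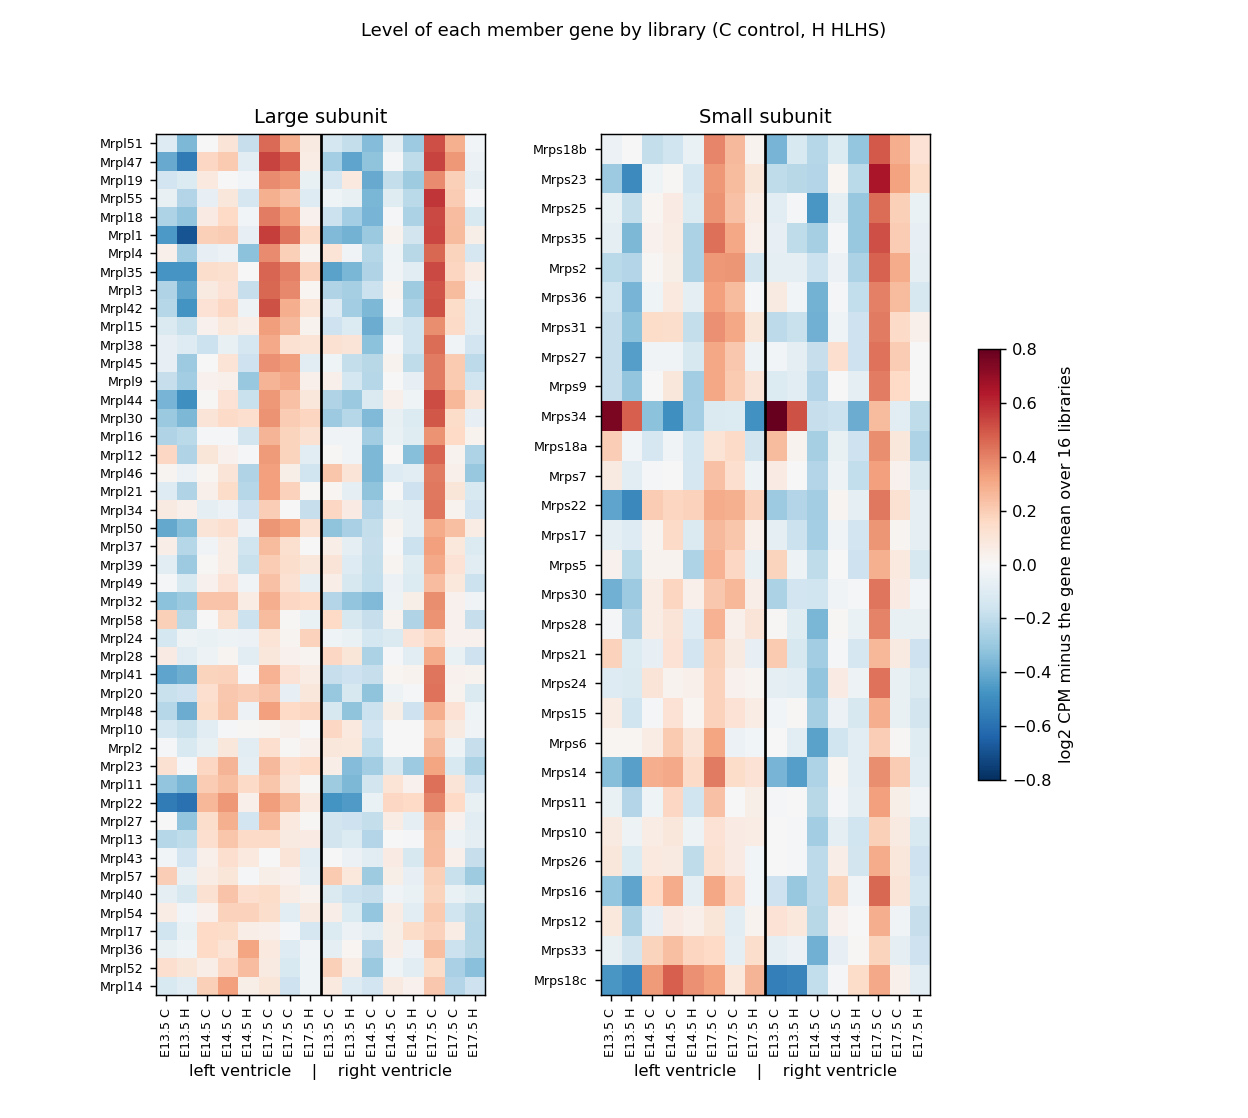
Level of each member in each library as log2(CPM + 0.5) minus the mean of that gene, with the large subunit in one panel and the small in the other, genes in rows ordered by their change from E14.5 to E17.5 and libraries in columns by ventricle and stage (C control, H HLHS). Red is higher and blue lower. Most rows are highest in E17.5 control columns, and Mrps34 is highest at E13.5.

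From E14.5 to E17.5, 27 of the 76 members rose in control hearts and 0 fell (edgeR's quasi-likelihood test on both ventricles of each embryo summed, 2 embryos against 2, adjusted p under 0.05). Over the 16823 genes tested, 15.8% rose and 14.1% fell. The median log2 change of the members was 0.23, against −0.0069 for all genes, with 0.21 for the large and 0.23 for the small subunit. The risers were 17 of 47 large and 10 of 29 small subunit genes. In 33 members, 20 large and 13 small, all 4 E17.5 control libraries lay above all 4 E14.5 control libraries, against 19.9% of all genes, and in 0 they lay below, against 15.2%.

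Mrps18b, a small subunit protein added in the mitochondrial lineage, rose most, and shares 30.5% of its exon bases with Gm16279. Its control levels were 11.53 and 11.81 CPM in E14.5 left ventricles, 11.23 and 12.21 in E14.5 right ventricles, 17.47 and 15.94 in E17.5 left ventricles, and 18.82 and 16.25 in E17.5 right ventricles. The stages did not overlap, and the log2 change was 0.54 ± 0.10 (SE, edgeR adjusted p = 0.0094). Next by size were Mrps23 at 0.46 ± 0.09, Mrpl51 at 0.45 ± 0.09, and Mrpl47 and Mrpl19 at 0.44 (SE 0.09 and 0.08). Mrpl55 (0.43 ± 0.11), Mrps25 (0.41 ± 0.10, one of the largely overlapping genes), Mrps35 (0.40 ± 0.09), Mrpl18 (0.40 ± 0.10) and Mrps2 (0.40 ± 0.07) also rose. Mrpl51, Mrpl47, Mrpl19, Mrpl55 and Mrpl18 belong to the large subunit, Mrps23, Mrps25, Mrps35 and Mrps2 to the small one.

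Grouped by origin, 12 of 29 large subunit genes of bacterial descent rose, and 5 of 18 large subunit genes added in the mitochondrial lineage. By small subunit symbol these counts were 2 of 16 and 7 of 12. Of all genes tested 15.8% rose, a share close to the 2 of 16. The 12 include Mrps18a, which rose, and Mrps30, which did not, both in the large subunit by structure. Mrps36, the dehydrogenase complex protein, rose by 0.38. No test of the difference between these classes was made.

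Of the genes tied to heart disease in people, Mrpl3 (0.38) and Mrpl44 (0.33) rose, while Mrps22 had 0.24 and Mrps14 0.17 and did not pass. Mrps18a and Mrps30, which sit in the large subunit by structure, had 0.30 and 0.23, and the first of these rose (edgeR adjusted p = 0.0409). Members that did not pass also included Mrpl12, a stalk protein of the large subunit that also binds the mitochondrial RNA polymerase (0.30, edgeR adjusted p = 0.0697), and Mrps5 of the small subunit (0.23, adjusted p = 0.0547). Mrpl58, a peptidyl-tRNA hydrolase built into the large subunit, had a change of 0.16. The lowest value was that of Mrpl14, −0.14. In left ventricles alone 24 members rose and 1, Mrpl14, fell (−0.31 ± 0.10, adjusted p = 0.0425), with a median of 0.11, and in right ventricles alone 20 rose and 0 fell, with a median of 0.32. Over all genes, 3100 of 15441 rose and 2734 fell in left ventricles alone. In right ventricles alone 1522 of 15624 rose and 1383 fell. The difference between the ventricles in the stage change was not tested. Leaving out one embryo leaves 1 embryo at its stage, so only the size of the change is given. The members' median was 0.16 without control replicate 2, 0.12 without replicate 4, 0.29 without replicate 3 and 0.32 without replicate 5. That of all genes was −0.0026, −0.019, −0.0032 and −0.016 in the same order. In these fits Mrps18b ran from 0.45 to 0.62 and Mrpl3 from 0.30 to 0.46.

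Cardiomyocyte markers moved over the same interval: 5 of 8 rose and 0 fell, and their summed level was 19480 to 24810 CPM in the 4 E14.5 control libraries and 30570 to 34240 in the 4 E17.5 control libraries. Cell cycle markers fell in 4 of 6 and red cell markers in 4 of 9. Their part in the members' rise was not tested.

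No test of E13.5 against later stages was made, since E13.5 held 1 litter with 1 control embryo. In 8 members all 4 E13.5 libraries lay below all 12 later ones (Mrpl1, Mrpl11, Mrpl22, Mrpl35, Mrpl44, Mrpl50, Mrps14 and Mrps18c), against 9.08% of genes at a mean of at least 1 CPM, a share close to that of the members. Mrps34, whose exons largely overlap other genes, was the 1 member with all 4 above, against 6.88%. Its E13.5 levels were 13.6 and 14.4 CPM in the control left and right ventricle and 11.1 and 11.3 in the HLHS ones, and its later levels ran from 5.43 to 9.45 CPM.

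In HLHS left ventricles 13 of the 76 members were lower than in stage-matched control left ventricles and 0 were higher (edgeR's quasi-likelihood test, 3 libraries against 5 with stage as a term, adjusted p under 0.05). Over the 15979 genes tested, 6.61% were lower and 6.17% higher. The median log2 change was −0.14, against 0.0066 for all genes, with −0.14 for the large and −0.16 for the small subunit, and 68 of the 76 values were below 0. At an unadjusted p under 0.05, 35 members were lower and 0 higher, against 14% and 14.8% of all genes. The 13 were 10 of 47 large and 3 of 29 small subunit genes. The changes were small, at most 0.30 on the log2 scale.

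**Figure D3:**
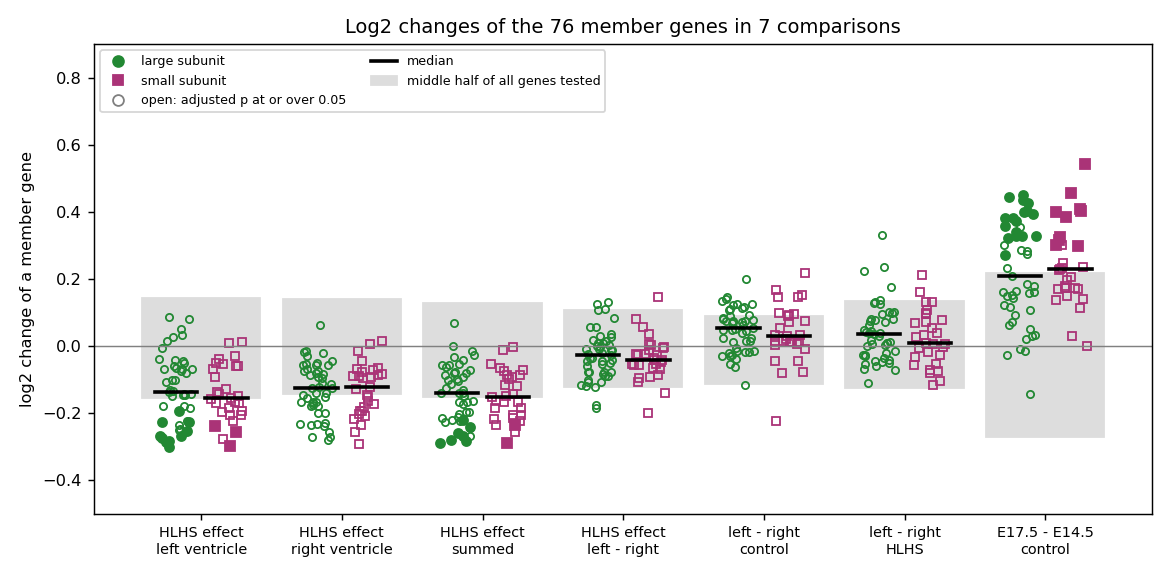
Log2 change of each of the 76 members in each comparison, one point per gene, by subunit symbol, with a line at the median, filled points at an adjusted p under 0.05 and a grey bar for the interquartile range of all genes tested. In HLHS left ventricles the filled points, 13 in number, all lie below 0, and from E14.5 to E17.5 the 27 filled points all lie above 0.

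Mrps35, a small subunit protein of the mitochondrial lineage, had levels of 48.8, 52.7 and 64.7 CPM in the HLHS left ventricles at E13.5, E14.5 and E17.5. Control left ventricles had 59.6 CPM at E13.5, 64.4 and 65.6 at E14.5, and 85.5 and 77.8 at E17.5. Each HLHS value lay below the controls of its stage, and the log2 change was −0.30 ± 0.06 (SE, edgeR adjusted p = 0.0109). Mrpl3, a large subunit protein whose inherited defects cause cardiomyopathy in people, had 69.4, 81.5 and 93.8 CPM in the HLHS left ventricles. Its control left ventricles had 78.4 CPM at E13.5, 97.4 and 100.3 at E14.5, and 127.5 and 120.8 at E17.5. The HLHS library was again the lowest of its stage each time, with a log2 change of −0.28 ± 0.06 (adjusted p = 0.0129).

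Mrpl45, which holds the ribosome at the inner membrane near the exit of the growing chain, had 62.1, 67.7 and 71.7 CPM in HLHS left ventricles. The controls had 72.6 CPM at E13.5, 76.1 and 82.0 at E14.5, and 98.2 and 96.0 at E17.5. All 3 HLHS libraries lay below every control left ventricle, whatever its stage, and the log2 change was −0.29 ± 0.06 (SE, edgeR adjusted p = 0.0175). Mrps5, a small subunit protein of bacterial descent, had 74.0, 72.5 and 82.5 CPM against 88.0 at E13.5, 87.6 and 87.8 at E14.5, and 104.4 and 96.5 at E17.5 in controls. It too was below every control left ventricle in all 3, with a log2 change of −0.26 ± 0.05 (adjusted p = 0.0120).

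**Figure D4:**
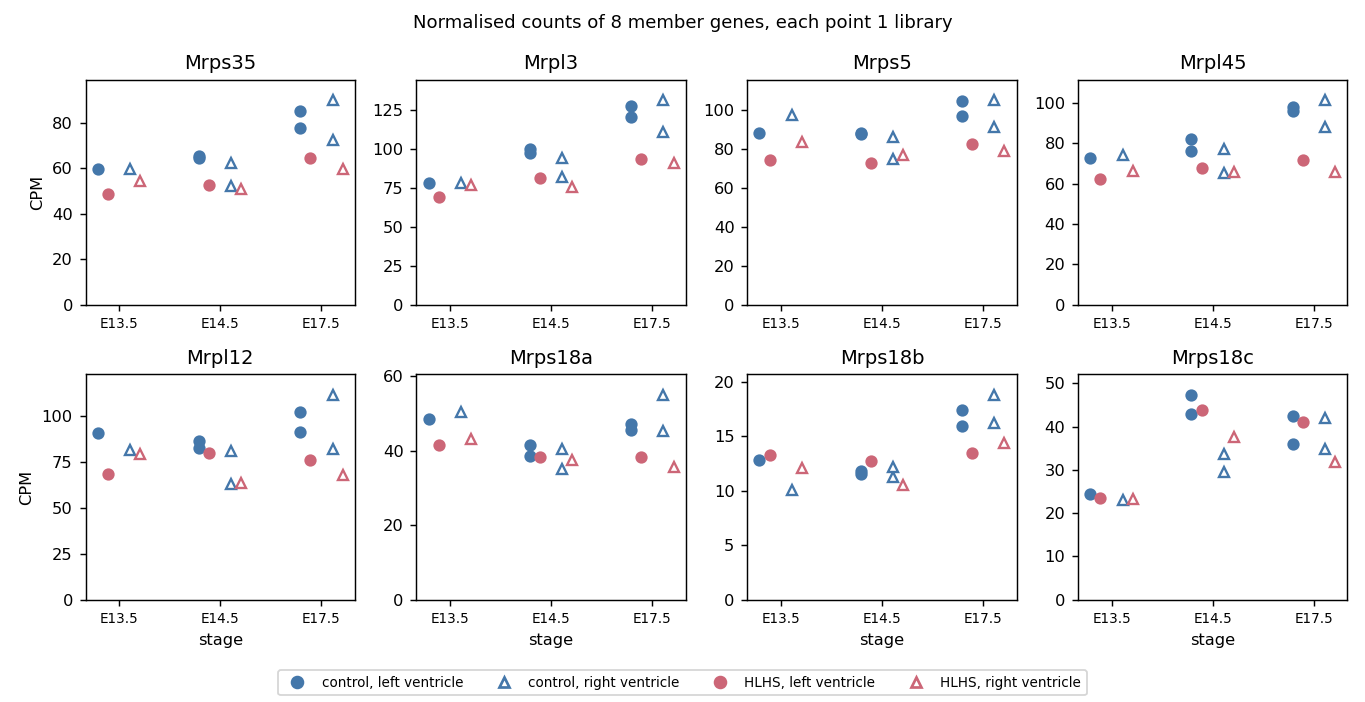
Level in CPM of Mrps35, Mrpl3, Mrps5, Mrpl45, Mrpl12, Mrps18a, Mrps18b and Mrps18c in each library by embryonic day, with controls and HLHS and the left and right ventricle marked apart. Each point is one library. The left ventricle HLHS points of Mrps35, Mrpl3, Mrps5 and Mrpl45 lie below the controls of their stage, and those of Mrps18c do so at E13.5 alone.

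Of the members past the threshold, the other 6 of the 10 with the largest changes were Mrpl47 (−0.30 ± 0.07), Mrpl1 of the stalk that releases used tRNA (−0.27 ± 0.07), Mrpl4 (−0.27 ± 0.06), Mrpl27, which lies near the catalytic centre (−0.27 ± 0.08), Mrpl51 (−0.25 ± 0.06) and Mrps31 (−0.24 ± 0.06), with edgeR adjusted p from 0.0175 to 0.0451. Mrpl42, Mrpl9 and Mrpl37 completed the 13, at −0.23, −0.23 and −0.19. All 13 were lower in the HLHS embryo in 3 of 3 litters. In 42 members, 25 large and 17 small, the HLHS libraries lay below the controls at every stage, against 17.3% of all genes, and in 0 they lay above, against 15.1%.

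Mrpl12 had a change of −0.25 (edgeR adjusted p = 0.0549) and Mrpl58 of −0.26 (adjusted p = 0.064), neither past the threshold. Of the other genes tied to heart disease in people, Mrpl44 had −0.19, Mrps14 −0.13 and Mrps22 −0.05, and none passed. Mrps36 had −0.19 and Mrps30 −0.06. In the Mrps18 family, Mrps18a, in the large subunit, had −0.17, and the small subunit forms Mrps18b and Mrps18c had −0.04 and 0.01, none past the threshold and with no test between them. The highest values of all were 0.087 for Mrpl24 and 0.081 for Mrpl36.

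Leaving out one library gave 4 to 12 lower members. The count was 4 without HLHS replicate 2 (470 of 15853 genes), 5 without control replicate 2 (638 of 15883) and 5 without control replicate 3 (709 of 15885). It was 6 without control replicate 4 (721 of 15908), 7 without HLHS replicate 3 (1071 of 15937) and 12 without control replicate 5 (866 of 15901). Mrps35, Mrpl45 and Mrpl3 passed in all 8 of these fits, and the median ran from −0.15 to −0.11. Without stage as a term, that is without the litter as a block, 0 members passed, and 1 of all genes did.

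Other markers moved in the same libraries. Red cell genes were higher in 8 of 9 in HLHS left ventricles, with summed levels of 757 to 1334 CPM against 476 to 841 in control left ventricles. Cardiomyocyte markers were lower in 2 of 8 (Myh6 and Tnni3), with a median of −0.02, fibroblast markers in 4 of 8 and endothelial markers in 3 of 8, while smooth muscle markers were higher in 2 of 6 and lower in 1. The part of these markers in the members' values was not tested.

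In HLHS right ventricles 0 of the 76 members were higher and 0 lower by edgeR, with 3.56% of all 16142 genes tested higher and 3.05% lower, while 11 members were lower and 0 higher at an unadjusted p under 0.05, against 10.7% and 12.8% of all genes, so the share of lower members was close to that of all genes. The median was −0.13, large −0.13 and small −0.12, against 0.0081 for all genes, and 73 values were below 0, the exceptions being Mrpl24, Mrps18c and Mrps33. The smallest p-values were those of Mrpl58 (−0.28 ± 0.10, edgeR adjusted p = 0.112), Mrpl45 (−0.27 ± 0.10, 0.122) and Mrpl3 (−0.23 ± 0.09, 0.149). The HLHS library lay below its controls at every stage in 7 members, Mrpl23, Mrpl3, Mrpl43, Mrpl58, Mrps2, Mrps34 and Mrps35, against 13.1% of all genes, and above in 0, against 15.7%, so the share of lower members was no larger than that of all genes. The median was −0.013 without HLHS replicate 3, −0.056 without control replicate 4 and −0.20 without control replicate 2. In the last of these fits 1 member was lower, against 674 of 15987 genes. Cardiomyocyte markers were lower in 2 of 8 in these ventricles (Ryr2 and Tnni3, list median −0.30), with summed levels of 19650 to 27710 CPM against 23830 to 34240 in control right ventricles. Fibroblast and cushion markers passed in 0 of 8, with a list median of 0.35, 8 of 8 above 0 and summed levels of 5021 to 6758 CPM against 2881 to 5711. Smooth muscle markers were higher in 2 of 6, leukocyte markers in 1 of 5, and endothelial markers lower in 1 of 8. The part of these markers in the members' values was not tested.

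The litters differed in the right ventricle more than in the left. The mean log2 difference over the 76 genes, HLHS minus control, was −0.12, −0.13 and −0.18 in left ventricles at E13.5, E14.5 and E17.5, with 63, 66 and 70 genes below 0. The gap in that mean between the 2 control littermates was 0.060 in the E14.5 litter and 0.12 in the E17.5 litter. In right ventricles the differences were −0.059, 0.015 and −0.32, with 54, 30 and 76 genes below 0. The gaps between control littermates there were 0.24 and 0.28. The large subunit mean in left ventricles was −0.10, −0.14 and −0.18, and the small subunit mean −0.15, −0.13 and −0.18.

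Libraries also differed in how short genes stood against long ones. The members' median exon length, 2394 bases, was below the 4601 of protein-coding genes at a mean of at least 1 CPM. Among the 13 lower in HLHS left ventricles it ran from 985 (Mrpl27) to 8631 (Mrps35). The median log2 level of genes under 2000 exon bases minus that of genes over 6000 differed between HLHS and controls by −0.095, −0.024 and −7.861e-05 in the left ventricle and by −0.11, 0.13 and −0.24 in the right, at the 3 stages in order. This measure and the members' mean had the same sign at each stage in the right ventricle and at E13.5 and E14.5 in the left. At E17.5 in the left the measure was too near 0 for its sign to be read. At E17.5 the members' mean was furthest below 0 on both sides, while the measure was lowest in the right ventricle and closest to 0 in the left. The part of this measure in the members' values was not tested. With this measure as a term, chosen after the data were seen, 9 members were lower in the left ventricle (median −0.13) and 1 in the right (median −0.053). Over all genes 812 of 15979 were lower and 740 higher in the left. In the right 875 of 16142 were lower and 1063 higher, so the share of lower members there was below that of all genes.

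**Figure D5:**
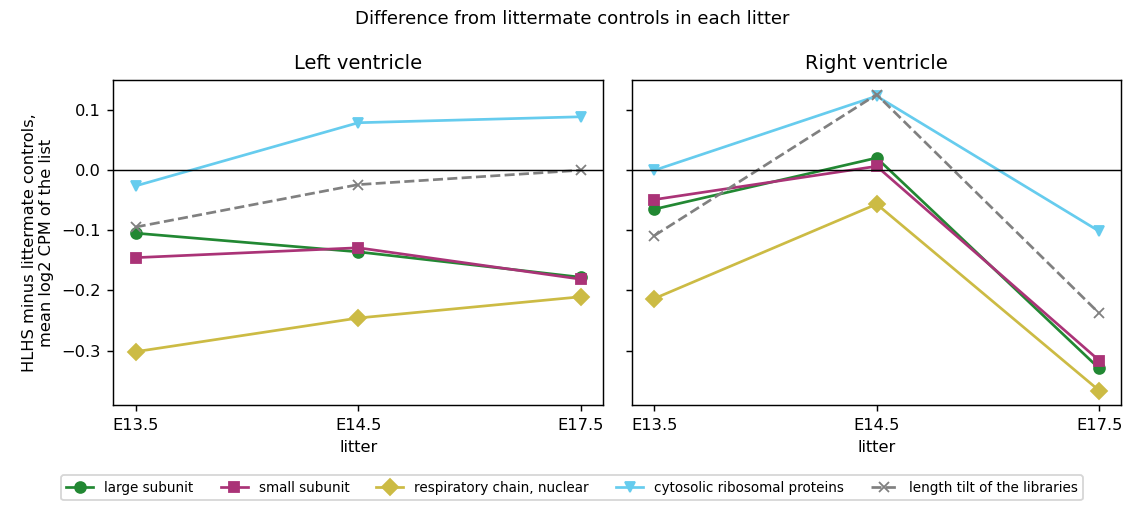
Mean log2 difference in CPM, HLHS minus control littermates, by ventricle and embryonic day, for the large and the small subunit, beside the nuclear respiratory chain genes, the cytosolic ribosomal protein genes and the difference between short and long genes (length tilt, dashed). Both subunits lie below 0 in all left ventricle litters, and in the right ventricle they lie near 0 at E14.5 and lowest at E17.5.

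With the ventricles of each embryo summed, 9 members were lower in HLHS and 0 higher (edgeR, 6.93% of 17429 genes lower and 6.85% higher), with a median of −0.15 and 75 values below 0. These were Mrpl45 and Mrps35 (−0.29), Mrpl47 and Mrpl58 (−0.28), Mrpl3 (−0.27), Mrpl4 (−0.26), Mrpl51 and Mrps5 (−0.24) and Mrpl9 (−0.22), 8 of them also lower in the left ventricle alone, whose libraries both fits share. The count was 0 without control replicate 3, HLHS replicate 2 or HLHS replicate 3. Over all genes 779 of 17305, 469 of 17312 and 769 of 17346 were lower in these fits. Without control replicate 1 or HLHS replicate 1 it was 2, against 646 of 17873 and 638 of 17990 genes. Where 0 or 2 members were lower, their share was below that of all genes. The count was 14 without control replicate 2 (1060 of 17338 genes), 9 without control replicate 4 (1070 of 17333) and 6 without control replicate 5 (895 of 17311).

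The HLHS effect in the left minus that in the right ventricle, fitted on the whole set of 16 libraries blocked by embryo, passed in 0 members in either direction by edgeR, and in 0 at an unadjusted p under 0.05, against 4.48% higher and 4.07% lower of all genes. Of all 16508 genes, 0% were higher and 0.0182% lower. The median difference was −0.036, but 0.031 without control replicate 2, 0.036 without HLHS replicate 1 and −0.090 without HLHS replicate 3. The smallest p-values were those of Mrpl27 (−0.18 ± 0.10, edgeR adjusted p = 0.688), Mrps31 (−0.20 ± 0.12, 0.746) and Mrps9 (−0.14 ± 0.10, 0.832). The HLHS effect on these genes was thus not shown to differ between the ventricles, nor shown to be alike.

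Left against right within control hearts, 0 members passed in either direction by edgeR, with 2.09% of 16238 genes higher and 4.01% lower on the left. At an unadjusted p under 0.05, 2 members were higher and 1 lower, against 8.99% and 12% of all genes. The median was 0.048, and the smallest p-values were those of Mrpl23, a large subunit protein at the exit tunnel (0.20 ± 0.07, adjusted p = 0.132), Mrps18c (0.22 ± 0.08, 0.165) and Mrps34 (−0.22 ± 0.09, 0.180). Mrps18c was higher on the left in every control embryo and Mrps34 lower in every one, the only members of either kind, against 11.5% and 8.73% of all genes. The mean over the members, left minus right, was −0.05, 0.31, 0.12, −0.10 and 0.06 in the 5 control embryos, and without control replicate 2, which had the 0.31, the median was 0.0062.

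Within HLHS hearts 0 members passed either way by edgeR, with 1.15% of 15771 genes higher and 2.89% lower on the left, and 3 members were higher and 0 lower at an unadjusted p under 0.05, against 7.17% and 8.82% of all genes. Mrpl23 again had the smallest p (0.33 ± 0.09, adjusted p = 0.0735), followed by Mrpl54 (0.22 ± 0.08, 0.222) and Mrpl52 (0.24 ± 0.09, 0.251). The median was 0.028, but 0.085 without HLHS replicate 1, 0.00066 without replicate 2 and −0.015 without replicate 3. In 11 members the left ventricle was higher in all 3 HLHS embryos and in 3 it was lower, against 19.4% and 18.2% of all genes, both shares of members being below those of all genes.

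The ribosome needs partners, and these were read from lists by function. For every list here, the shares of all genes tested were as follows. With stage 15.8% rose and 14.1% fell. In HLHS left ventricles 6.61% were lower and 6.17% higher, and in right ventricles 3.05% were lower and 3.56% higher. Mitochondrial ribosomal proteins with other symbols rose with stage in 2 of 5, Ptcd3 (0.46) and Dap3 (0.39), both of the small subunit, and 0 of 5 changed in either HLHS ventricle. Of 25 assembly factors, 8 rose with stage, among them Mrm3 (1.03) and Mrm1 (0.84), which methylate the ribosomal RNA, and Noa1 (0.46). In HLHS left ventricles 1 of the 25 was lower, the GTPase Mtg1 (−0.28), and in right ventricles 0, shares no larger than those of all genes. Of 17 translation factors, 9 rose with stage, including Qrsl1 (0.80), which helps charge glutamine tRNA, Taco1 (0.62), an activator of cytochrome oxidase translation, and the elongation factor Tufm (0.49).

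In HLHS left ventricles 4 of the 17 translation factors were lower, with a list median of −0.17: Qrsl1 (−0.40), its partner Gatc (−0.24), the initiation factor Mtif2 (−0.29) and Oxa1l (−0.27), which inserts the new proteins into the membrane. In right ventricles 0 changed. Mitochondrial tRNA synthetases rose with stage in 4 of 17 (Mars2 0.60, Ears2 0.42 and Nars2 0.40 the largest), and were lower in 2 of 17 in HLHS left ventricles (Sars2 −0.30 and Cars2 −0.21) and in 1 in right ventricles (Ears2 −0.59). Mitochondrial import genes rose with stage in 12 of 20 and were lower in 4 of 20 in HLHS left ventricles.

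Among 10 regulators of mitochondrial gene expression, 5 rose with stage, including Perm1 (1.37), a muscle regulator of oxidative genes, and the nuclear receptor Esrra (0.63). In HLHS left ventricles 3 were lower, Perm1 (−1.35), the coactivator Ppargc1a (−0.36) and Esrra (−0.32), and in right ventricles 1, Perm1 (−0.88). Nuclear respiratory chain genes, whose proteins join those made by this ribosome in the same complexes, were lower in 43 of 78 in HLHS left ventricles (median −0.23) and in 4 of 78 in right ventricles (median −0.20), and 38 rose and 1 fell with stage (median 0.34). The mitochondrially encoded genes, whose messages this ribosome reads, passed in 0 of 12 in either HLHS ventricle and rose with stage in 4 of 12. Cytosolic ribosomal protein genes had medians of the opposite sign to the members in HLHS left ventricles and with stage. Their median was 0.08 in HLHS left ventricles, with 1 of 85 higher and 1 lower, and −0.10 with stage, with 2 rising and 3 falling. By litter their mean HLHS difference was −0.026, 0.079 and 0.089 in left ventricles at E13.5, E14.5 and E17.5. In right ventricles it was −0.00032, 0.12 and −0.10, with the members' sign each time. The stage and HLHS comparisons share control libraries, so their values are given side by side and not as support for each other.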

How the data were processed

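RNA of left and right ventricles was extracted with a miRNeasy kit and made into libraries with a TruSeq RNA kit, per the labels' protocols. The authors deposited a table of whole-number read counts per gene. Per the submitters' processing notes, TopHat2 2.0.9, Picard, HTSeq 0.5.4p5, edgeR 3.4.2 and the mouse build mm9 were used. Annotation, strand setting and handling of duplicates: not given in the sources used here.

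Symbols were found for 32919 of 37991 genes (86.6%), and genes without one hold 0.492% of the counts. Exon lengths, overlaps and neighbours come from GENCODE M21 and promoters from RefSeq, both on GRCm38, a later build than that of the counts. Levels are CPM scaled by TMM factors. Within groups, all 26 pairs of libraries differed by more than counting noise (chi-square over its degrees of freedom at least 7.01).

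Counts were tested over all genes in R 4.3.3 with edgeR 4.0.16 (TMM, filterByExpr at min.count 10 and min.total.count 15, quasi-likelihood test, Benjamini-Hochberg adjustment, threshold 0.05). HLHS was compared with control with stage, which is the litter, as a block, and sides with the embryo as a block. The 2 ventricles of an embryo are paired by the labels. Across 10194 genes the difference between 2 control littermates in the left ventricle correlated with that in the right with an r of 0.677 at E14.5 and 0.751 at E17.5. Fits were tested on simulated data, where unchanged genes made up more of the calls than the threshold allows in most comparisons. Most small changes there went uncalled in every comparison except HLHS with ventricles summed and left against right in control hearts. The left minus right effect missed the most.

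The members and the lists were chosen with earlier results of these data known. In each comparison the text names up to 10 members past the threshold by size of change, or the 3 with the smallest p where none passed. It also names the 3 highest and 3 lowest per length, 12 members whatever their values (Mrpl3, Mrpl44, Mrps22, Mrps14, Mrps5, Mrpl12, Mrpl58, Mrps30, Mrps18a, Mrps18b, Mrps18c and Mrps36), members called against the list median, and up to 3 genes per other list. Others named were chosen after their values were seen. Alternatives were DESeq2 1.42.0, limma 3.58.1 with voom, other scalings and filters, no block, subunits by structure, and each embryo or library left out.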

Additional observations from a re-analysis of the deposited data

Results flagged for a closer look

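Named members, the subunit sums and their ratio were examined in the 5 control left and the 5 control right ventricles, 78 groups of 5 values in all. In 3 of them a library stood apart by a gap to its nearest neighbour over 0.71 of the group's range, each time the E13.5 left ventricle (control replicate 1). Chance flags about 1 in 20 groups of this size. The ratio of the large to the small subunit sum was 1.857 in that library. Mrps22 was at 28.0 CPM there and at 42.4 to 46.4 CPM in the other 4. Mrps34 was at 13.6 CPM there and at 5.43 to 7.21 CPM in the other 4. That library is the only control left ventricle of its stage.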

How the results depend on the processing

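The lower count in HLHS left ventricles, 13, was 22 with no filter on low counts, 16 with DESeq2 and 14 with voom. Over all genes 1488 of 24764, 1079 of 15979 and 1049 of 15979 were lower in the same order. With no replicate block 0 members and 1 of all genes passed. In right ventricles the lower count was 1 with the length measure as a term, against 875 of 16142 genes. With ventricles summed, the 9 lower became 16 with DESeq2, 14 with no filter, 15 with the length measure and 0 with no replicate block. Over all genes 1282 of 17429, 1406 of 25953, 1347 of 17429 and 0 of 17010 were lower in the same order. Within HLHS hearts 1 member was higher on the left with no filter, against 454 of 24252 genes. With stage, 1 was lower in left ventricles alone. Leaving out one library or embryo gave 4 to 12 lower in left ventricles, 0 to 1 in right ventricles, 0 to 14 summed, and 12 to 44 risers with stage.

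Mrps18c changed sign in HLHS left ventricles with no filter (−0.0054) and no replicate block (−0.084), in right ventricles with a filter of 1 CPM in 3 libraries (−0.0057) and no replicate block (−0.071), and with stage under voom (−0.0036), that filter (−0.024) and in left ventricles alone (−0.22). Mrps14 was −0.031 with stage in left ventricles alone, and Mrps30 was 0.020 in HLHS right ventricles with the length measure. Without one library each, ranges crossed 0 in left ventricles for Mrps18b (−0.15 to 0.11), Mrps18c (−0.034 to 0.040) and Mrps30 (−0.12 to 0.015). They did so in right ventricles for Mrps18b (−0.22 to 0.020), Mrps18c (−0.15 to 0.16), Mrps22 (−0.18 to 0.051) and Mrps30 (−0.12 to 0.086), and with stage for Mrps18c (−0.13 to 0.12). The cause was not tested. Every member had at least 140 reads in each library, and groups held 2 to 5 embryos.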

Other observations

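Motif content was set beside the changes as a description. In HLHS left ventricles the median log2 change was −0.17 in members with an NRF1 core in the promoter window and −0.14 in those without, −0.17 and −0.14 for the ETS core, and −0.15 and −0.14 for the YY1 core. From E14.5 to E17.5 the medians with and without were 0.20 and 0.23 for NRF1, 0.16 and 0.23 for ETS, and 0.18 and 0.22 for YY1.

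Mrpl14, a large subunit protein at the face between the subunits, was the only member called against the rise with stage, and only in left ventricles taken alone.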
